A study of Mus musculus with 6 samples.

Results

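Oxidative phosphorylation subunit genes were followed in mouse colon 6 h after injection of a cytokine. The members were the protein-coding genes of the deposited table whose symbols name subunits of the respiratory chain complexes or of ATP synthase (Nduf, Sdh, Uqcr, Cyc1, Cox4 to Cox8 and Atp5 symbols), together with every protein-coding gene of the mitochondrial chromosome. The rule took 98 genes of 35275 in the table, 85 encoded in the nucleus and 13 in mitochondrial DNA. By complex, the nuclear genes comprised 37 of complex I, 4 of complex II, 9 of complex III, 18 of complex IV and 17 of complex V, and the mitochondrial genes 7 of complex I, 1 of complex III, 3 of complex IV and 2 of complex V. The choice was made on names, so it holds a few genes that are not structural subunits, among them Atp5s and Atp5sl, which carry ATP synthase names, and Cox7a2l, which is known for joining complexes III and IV into supercomplexes. Ndufa4 carries a complex I name, although its protein is now counted as a subunit of complex IV, and it was kept under complex I.

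The tissue was colon of C57BL/6 mice that received buffer alone (phosphate-buffered saline, PBS), the wild-type cytokine interleukin-22 (called WT IL-22 here) or an engineered form of it named 22-B3, both proteins at 200 µg per mouse. Each of the 3 groups had 2 libraries, made from whole colon tissue by mRNA enrichment (n = 2 for every mean below, with the SD over those libraries). Interleukin-22 is a cytokine of lymphoid cells that acts on epithelial cells through a STAT3-linked receptor. No genotype other than the strain, no sex, no age and no pooling of animals was given in the labels used here. Whether the libraries of a group represent different animals is not stated in the labels, and the p-values speak only of the variation among libraries, some of which may be technical.

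Oxidative phosphorylation makes most of the ATP of well-oxygenated cells. Complexes I and II pass electrons from NADH and succinate to ubiquinone, complex III passes them on to cytochrome c, complex IV passes them to oxygen, and ATP synthase, called complex V, uses the proton gradient that complexes I, III and IV build. Most subunits are encoded in the nucleus and imported, while a few hydrophobic core subunits are encoded in mitochondrial DNA and made on mitochondrial ribosomes. Complex II has no mitochondrially encoded subunit. In the colon, epithelial cells near the lumen oxidise butyrate from bacterial fermentation and depend heavily on this pathway, and smooth muscle of the wall uses it too.

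Total counts per library ran from 17428528 to 22081904. The subunit genes took between 3.70% and 4.80% of all counts. All 12 colon epithelium markers and all 9 smooth muscle markers were measured, so both layers of the organ were in the samples. The PBS libraries stood closer together than the other pairs. Over the 15628 genes tested, the median absolute log2 difference between the libraries of a group was 0.11 for PBS, 0.22 for WT IL-22 and 0.29 for 22-B3. Immunoglobulin variable genes, which differ between B cell clones, correlated at r = 0.963 between the PBS libraries (79 genes) and at -0.147 to 0.165 in the other 14 pairs. With those libraries summed into 1, 0 subunit genes and 0 genes of the other lists below passed the edgeR test against PBS for either protein. In that setting 29 of all genes fell and 129 rose for WT IL-22, while 3 fell and 2 rose for 22-B3. Every rise or fall against PBS given below is therefore a call made with the PBS libraries counted as 2. The SEs and intervals below rest on the same fit, also those between the cytokines. In the nuclear subunit genes the median absolute log2 difference between libraries was 0.64 for 22-B3 over 82 genes, against 0.06 for PBS and 0.14 for WT IL-22.

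Levels were compared between genes as FPKM (fragments scaled for gene length and library total), since only a per-length scale allows it. The highest subunit gene was mt-Co1, the catalytic core of complex IV, with a mean of 6859 FPKM over the 6 libraries. mt-Cytb, the cytochrome b of complex III, followed with 2713 FPKM and mt-Nd1, a membrane subunit of complex I, with 2596 FPKM. Of the nuclear genes, Atp5b (the catalytic beta subunit of ATP synthase) was highest at 1250 FPKM, followed by the complex IV genes Cox6a1 at 1177 FPKM and Cox8a at 1039 FPKM. The highest nuclear gene of complex I was Ndufb9 with 469 FPKM, of complex II Sdhd (a membrane anchor) with 345 FPKM, and of complex III Uqcr10 with 508 FPKM. The lowest genes tested were Ndufb2 with 0.636 FPKM in complex I, Sdhc (the other membrane anchor) with 93.6 FPKM in complex II, Uqcrq with 161 FPKM in complex III, Cox8b with 1.17 FPKM in complex IV and Atp5s with 6.18 FPKM in complex V. The table divides by a length of 4371 bases for Ndufb2, whose coding part has 315 bases, so its FPKM is low partly by construction. Uqcrq was divided by 1521 bases although its annotated transcript has 405. Per kilobase of annotated transcript, Uqcrq had 609.9 CPM (counts scaled to a common library total) beside 602 for Uqcr10, so its place as the lowest of complex III depends on the length used. On that scale Uqcrb was lowest in complex III with 186 and Uqcrh highest with 686. Cox6a1 (1286) then stood above Atp5b (1253), and Ndufa4l2 (2.26) below Ndufb2 (6.11). The highest place among nuclear genes and the lowest place in complex I thus depend on the length used too.

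**Figure D1:**
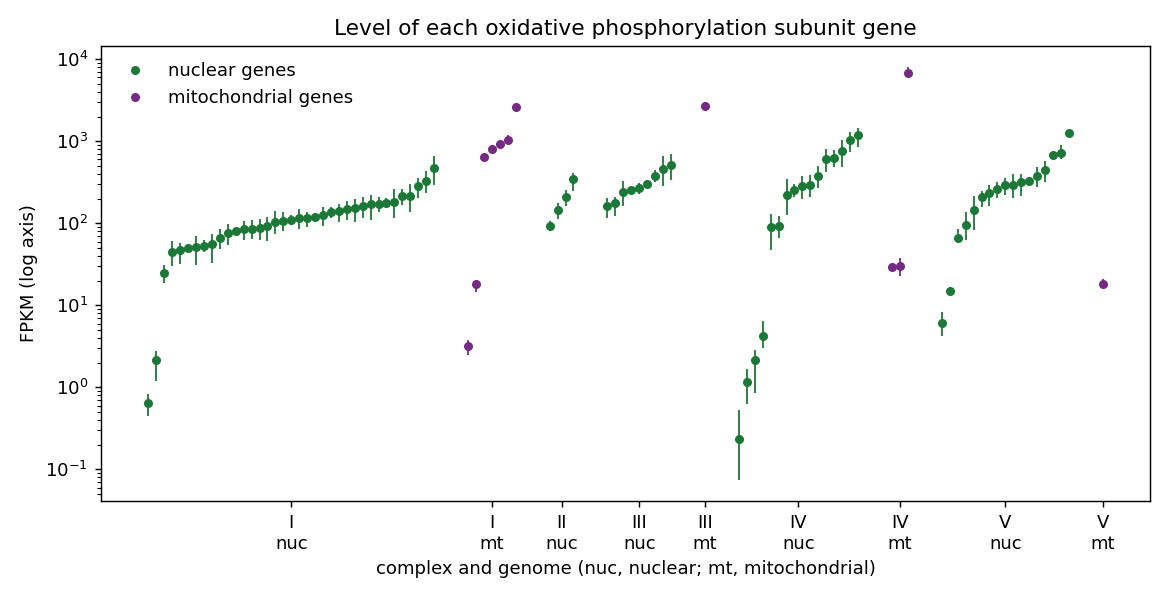
Mean FPKM of each subunit gene (log axis) with bars from the lowest to the highest of the 6 libraries, ordered by level within each complex and genome. The mitochondrial genes fall into a high set between 647 and 6859 FPKM and a low set between 3.19 and 30.4 FPKM, and genes with 0 counts are not drawn.

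Several complex IV subunits exist as paired genes, a broadly expressed form and a form of muscle, lung or testis. In colon the broad form dominated in each pair. Cox4i1 had 768 FPKM against 2.17 for Cox4i2, the form known from lung. Cox6a1 had 1177 FPKM against 0.234 for Cox6a2, and Cox8a 1039 FPKM against 1.17 for Cox8b, the second gene of each pair being the heart and skeletal muscle form. These muscle forms were low in an organ that contains smooth muscle. Cox7a1, also a muscle form, was the exception, with 89.9 FPKM beside 288 FPKM for its partner Cox7a2. Cox6b2, a testis form, had 4.19 FPKM against 603 for Cox6b1. Ndufa4l2, a hypoxia-linked relative of Ndufa4, had 2.19 FPKM against 331 for Ndufa4. The testis-type genes Cox7b2 and Cox8c had 0 counts in all 6 libraries, which allows at most 0.0253 CPM over all 6 (3 counts of the total, counting error only). Of the 3 genes for the c ring of ATP synthase, which encode the same mature protein, Atp5g3 had 728 FPKM, Atp5g2 263 FPKM and Atp5g1 66.6 FPKM. The table divides Atp5g1 by 4715 bases, while its annotated transcript has 596. Per kilobase of transcript the values were 883 CPM for Atp5g3, 451 for Atp5g2 and 529 for Atp5g1, so the order of the last pair depends on the length used.

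With WT IL-22, many nuclear subunit genes were lower than with PBS, while the mitochondrially encoded genes did not pass the test in either direction. Of 82 nuclear genes tested, 36 fell and 0 rose at an edgeR adjusted p under 0.05, against 6.74% of all genes tested that fell and 9.9% that rose. Cox6a2, Cox7b2 and Cox8c were too low to be tested. Without adjustment, at p under 0.05, the counts were 60 lower and 1 higher, where 16.2% of all genes were lower and 18.7% higher. DESeq2 called 54 nuclear genes lower, against 8.61% of all genes. The median log2 change of the 82 genes was -0.70, a ratio of 0.616, beside a median of -0.01 over all genes tested. The WT IL-22 libraries lay wholly below the PBS libraries for 75 of the 82 genes, against 35.3% of all genes tested. The count of nuclear genes that fell was 0 with the PBS libraries summed into 1, a setting under which 0.186% of all genes fell. It was also 0 without PBS replicate 1 (0.186% of all genes), PBS replicate 2 (0.179%) or WT IL-22 replicate 1 (0.806%), 5 without WT IL-22 replicate 2 (4.13%), and 67 and 65 without 22-B3 replicate 1 and 2 (15.7% and 14.2%). Whole tissue was measured, so fewer cells of a type and less RNA per cell cannot be told apart.

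In complex I, 15 of 37 nuclear genes fell, all of them small accessory subunits that surround the catalytic core. Ndufa7, one of these accessory subunits, had 168 and 166 CPM with PBS, 71.8 and 78.3 after WT IL-22 and 85.9 and 139 after 22-B3. The WT IL-22 libraries were the lowest and did not overlap with PBS. Its log2 change with WT IL-22 was -1.16 ± 0.21 (SE, edgeR adjusted p = 0.0111). Ndufb4, an accessory subunit of the membrane arm, had 63.4 and 69.9 CPM with PBS, 29.0 and 33.2 after WT IL-22 and 42.3 and 65.1 after 22-B3. Both WT IL-22 libraries were below every other library, and the second 22-B3 library lay among the PBS values. Its log2 change was -1.10 ± 0.21 (edgeR adjusted p = 0.0122). Ndufa1 (log2 -1.06), Ndufb9 (-1.04), Ndufa11 (-0.89), Ndufs6 (-0.82), Ndufs5 (-0.79) and Ndufc1 (-0.74) also fell. All 6 are accessory subunits too.

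The core subunits of complex I that carry out electron transfer behaved differently, and they are named here after their values had been seen. Ndufs1, the largest subunit and a carrier of iron-sulfur clusters, had 120 and 119 CPM with PBS, 146 and 134 after WT IL-22 and 144 and 139 after 22-B3. All 4 cytokine libraries were above PBS, and the log2 change with WT IL-22 was 0.22 ± 0.13 (edgeR adjusted p = 0.267). Ndufv1, which binds NADH, had a log2 change of -0.15, with a 95% interval from -0.51 to 0.21. Ndufa10, a large accessory subunit, had 0.06, with an interval from -0.26 to 0.39. The intervals of Ndufv1 and Ndufa10 lie above the nuclear median of -0.70, in a fit that counts the PBS libraries as 2.

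Complex II, succinate dehydrogenase, was the only nuclear complex with 0 of its genes passing the edgeR test with WT IL-22. At an unadjusted p under 0.05, 2 of its 4 genes were lower and 1 higher, against 16.2% and 18.7% of all genes. Sdha, the flavoprotein that oxidises succinate, had 341 and 337 CPM with PBS, 501 and 405 after WT IL-22 and 498 and 406 after 22-B3. All 4 cytokine libraries were above both PBS libraries. Its log2 change was 0.42 ± 0.18 (edgeR adjusted p = 0.132), the highest of all nuclear subunit genes. It passed as a rise when either 22-B3 library was left out of the fit (edgeR adjusted p = 0.0437 without replicate 1 and 0.0362 without replicate 2, settings in which 16.6% and 17.8% of all genes rose). For Sdhb, the iron-sulfur subunit, the log2 change was -0.55 (edgeR adjusted p = 0.0883), for Sdhd -0.54 and for Sdhc -0.40, so the genes of this 4-part enzyme did not share a direction.

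In complex III, 5 of 9 nuclear genes fell, again the small ones. Uqcrh, the hinge protein next to cytochrome c1, had 511 and 542 CPM with PBS, 218 and 261 after WT IL-22 and 261 and 458 after 22-B3. The first 22-B3 library was level with the second WT IL-22 library. The log2 change of Uqcrh with WT IL-22 was -1.13 ± 0.25 (edgeR adjusted p = 0.0212), and Uqcr10 fell to a ratio of 0.499 of its PBS level. Uqcrq, Uqcr11 and Uqcrb were the others that fell. The redox-active Cyc1 (cytochrome c1) had a log2 change of -0.29 and Uqcrfs1 (the Rieske iron-sulfur protein) -0.39, and neither passed. Uqcrc1, a large core protein, had -0.06, with a 95% interval from -0.45 to 0.33.

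In complex IV, 10 of the 15 tested nuclear genes fell, the largest share of any complex, with a median log2 change of -0.87. Cox7a1, the muscle form named above, had 46.3 and 48.2 CPM with PBS, 16.8 and 19.2 after WT IL-22 and 26.2 and 41.4 after 22-B3. Every cytokine library was below PBS, with WT IL-22 the lowest. Its log2 change of -1.39 ± 0.22 (edgeR adjusted p = 0.00649) was the lowest of all nuclear subunit genes. Cox7a2l, the supercomplex factor, had 349 and 409.7 CPM with PBS, 139.8 and 179 after WT IL-22 and 186 and 263 after 22-B3. Both cytokine groups lay below PBS. Its log2 change with WT IL-22 was -1.25 ± 0.21 (edgeR adjusted p = 0.00832). The broad forms fell as well, Cox4i1 with a log2 change of -1.01, Cox7a2 with -0.92, Cox6b1 with -0.87, Cox6a1 with -0.79 and Cox8a with -0.75, and so did Cox7b (-0.91), Cox7c (-0.95) and Cox6c (-0.96). Cox5a and Cox5b, which help assemble and tune the enzyme, did not pass, with -0.49 and -0.64.

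In complex V, 6 of 17 genes fell. Atp5e, the epsilon subunit of the central stalk, had 338 and 378 CPM with PBS, 136 and 166 after WT IL-22 and 173 and 314 after 22-B3. The WT IL-22 libraries were the lowest, and its log2 change was -1.24 ± 0.26 (edgeR adjusted p = 0.0177). Atp5j2 (-0.88), Atp5j (-0.85), Atp5h (-0.80) and Atp5l (-0.75), small subunits of the membrane part and the outer stalk, fell too. Of the 3 genes for the c ring, Atp5g2 fell, by 0.62, while Atp5g3 (-0.41) and Atp5g1 (-0.16) did not pass. Atp5g2 has processed pseudogenes of identical sequence and Atp5h has a copy of 99.0% identity, each with a few counts of its own in the table, so how their reads were split is uncertain. The catalytic subunits stood apart from the small ones. Atp5b had 2383 and 2447 CPM with PBS, 2174 and 2255 after WT IL-22 and 2305.5 and 2845 after 22-B3, a log2 change of -0.13 with WT IL-22 (95% interval -0.56 to 0.31). Atp5a1, the alpha subunit, had a log2 change of 0.06 (interval -0.33 to 0.46).

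**Figure D2:**
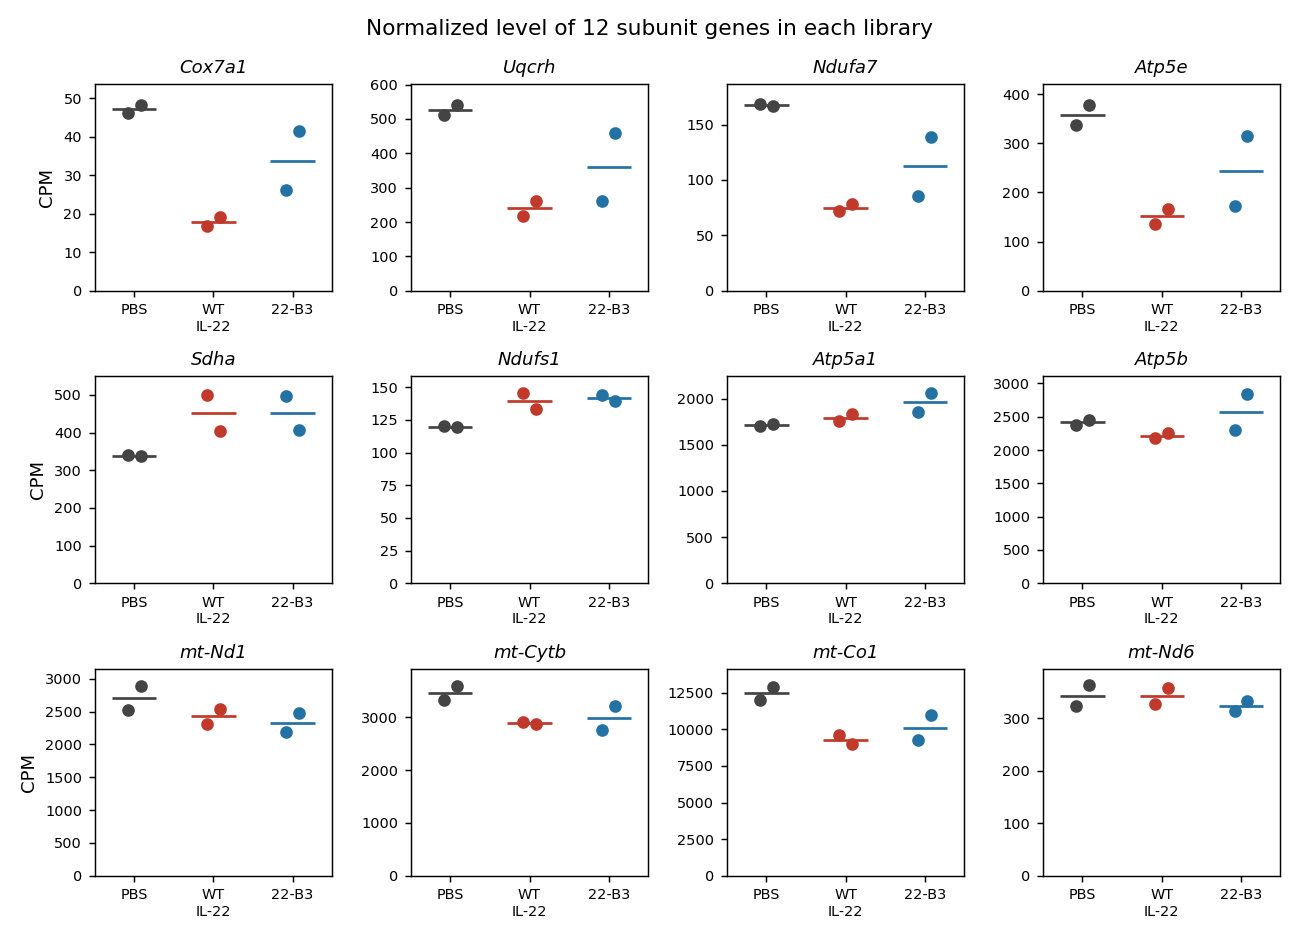
CPM of 12 subunit genes in each library (points) with the group mean (line); every axis starts at 0. The upper row shows 4 nuclear genes that fell with WT IL-22, the middle row 4 large nuclear subunits that did not pass, and the lower row 4 mitochondrial genes, of which mt-Co1 had the lowest ratio to PBS.

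The mitochondrially encoded genes changed less. Of 12 tested, 0 fell and 0 rose with WT IL-22 in the edgeR test. Before adjustment 1 was lower (p under 0.05, against 16.2% of all genes), and 1 was lower by DESeq2 (8.61% of all genes). Their median log2 change was -0.21, a ratio of 0.864, with a range from -0.69 to 0.25. They are longer, with a median coding length of 869 bases against 426 for the nuclear genes. Nuclear genes over 600 bases had a median log2 change of -0.32 (22 genes) and those over 900 bases -0.14 (12 genes). The part of length in the difference between the genomes was not tested. The WT IL-22 libraries lay below the PBS libraries for 7 of the 12 mitochondrial genes, against 35.3% of all genes tested. mt-Co1 had 11998.5 and 12903 CPM with PBS, 9602 and 9009.5 after WT IL-22 and 9261 and 10981 after 22-B3. All 4 cytokine libraries were below PBS. Its log2 change with WT IL-22 was -0.42 ± 0.22 (edgeR adjusted p = 0.205). mt-Cytb had 3324 and 3587 CPM with PBS, 2915 and 2872 after WT IL-22 and 2753 and 3209 after 22-B3, again with the cytokine groups below PBS. Its log2 change was -0.26, and that of mt-Nd2 was -0.23.

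The gene on the other strand of mitochondrial DNA had nearly the same mean in PBS and WT IL-22. mt-Nd6, a membrane subunit of complex I and the only protein read from the light strand, had 323 and 363 CPM with PBS, 327 and 357 after WT IL-22 and 315 and 333 after 22-B3. The groups overlapped for PBS and WT IL-22, and the ratio was 0.998 with a 95% interval of the log2 change from -0.35 to 0.34. mt-Nd5 (-0.01), mt-Nd1 (-0.15), mt-Nd3 (-0.17) and mt-Nd4 (-0.20), all membrane subunits of complex I, did not pass either.

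The low set of mitochondrial genes in FPKM was the set with near-identical copies in the nuclear genome. For mt-Co2, mt-Co3, mt-Atp6, mt-Nd3 and mt-Nd4l, an annotated nuclear pseudogene on chromosome 1 matched at least 98% of bases over at least 80% of the gene. mt-Co2 and mt-Co3 encode further core subunits of complex IV, and mt-Atp6 the proton channel of ATP synthase. The copy of mt-Co2 was identical over 681 of 681 aligned bases, and that of mt-Co3 over 783 of 783. In the deposited table the copy of mt-Co2 had from 331 to 493 counts per library, about as many as mt-Co2 itself with 330 to 432. Summed with its copy, mt-Co3 had between 46.4 and 71.9 FPKM, still far under the 647 FPKM of mt-Nd6, the lowest gene of the high set. The treatment of reads that fit both places is not stated in the sources, and the values of these 5 genes are uncertain for that reason. This touches mt-Co3, the mitochondrial gene whose log2 change was lowest. It had 29.0 and 29.9 CPM with PBS, 17.1 and 19.2 after WT IL-22 and 19.0 and 29.8 after 22-B3, a log2 change with WT IL-22 of -0.69 ± 0.21 (edgeR adjusted p = 0.0565). Only the second 22-B3 library reached the PBS values. mt-Nd4l, with a log2 change of 0.25, had between 13 and 23 counts per library.

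mt-Atp8, a small subunit of the membrane part of ATP synthase, had 0 counts in all 6 libraries, although it lies on the same primary transcript as its neighbours. Its end overlaps the start of mt-Atp6 on the same strand by 43 bases. The gene is shown whole because that overlap is 43 of only 204 bases; it lies at chrMT:7766-7969 (plus strand, mm10), and capitals mark the part shared with mt-Atp6.
mt-Atp8: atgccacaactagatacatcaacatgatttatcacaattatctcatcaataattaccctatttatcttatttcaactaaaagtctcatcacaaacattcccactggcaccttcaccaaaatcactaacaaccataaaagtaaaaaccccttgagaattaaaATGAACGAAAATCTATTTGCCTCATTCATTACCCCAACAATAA
A count of 0 for a gene inside so abundant a transcript is a property of this table and was not read as absence of the RNA.

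**Figure D3:**
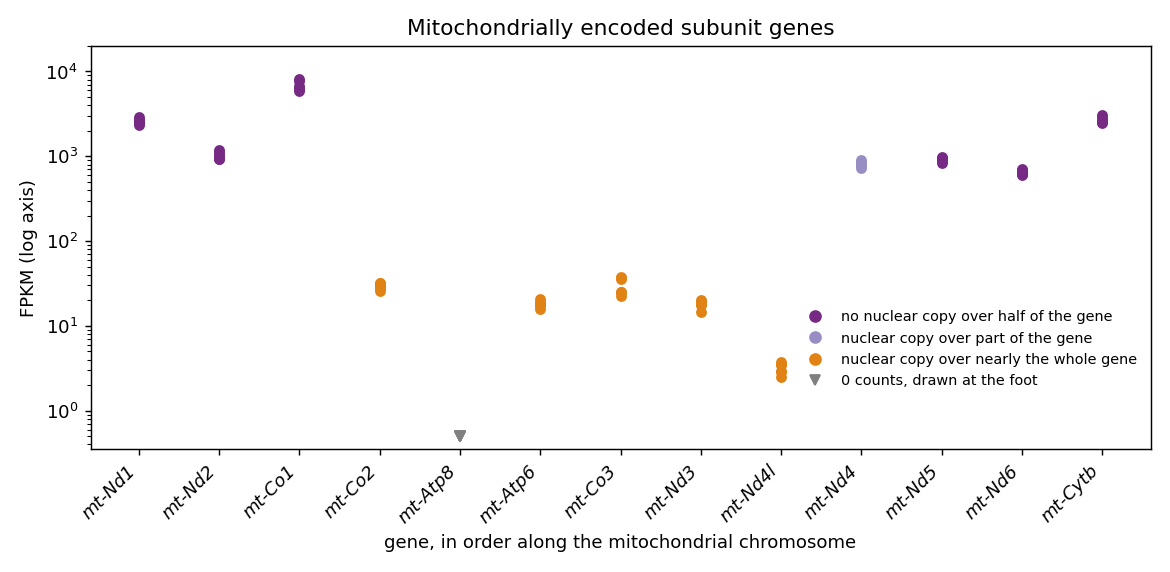
FPKM (log axis) of the 13 mitochondrial genes in each of the 6 libraries, in order along the mitochondrial chromosome and coloured by the extent of a nuclear copy of at least 98% identity. The 5 genes with a copy over nearly the whole gene lie at 30.4 FPKM or lower on average, and mt-Atp8 has 0 counts.

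As a summed level, the nuclear subunit genes had 24416 and 25189 CPM with PBS, 16914 and 17838 after WT IL-22 and 18590.5 and 26249 after 22-B3. The mitochondrial genes had 22212 and 24137 CPM with PBS, 18946 and 18710 after WT IL-22 and 18062 and 20892 after 22-B3. The ratio of mitochondrial to nuclear summed CPM was 0.910 and 0.958 with PBS, 1.12 and 1.05 after WT IL-22 and 0.972 and 0.796 after 22-B3. It was thus higher in both WT IL-22 libraries than in both PBS libraries, with the 22-B3 libraries on either side of PBS. This ratio carries no test, since the members were chosen with earlier results known.

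The nuclear genes that fell were the short ones. All 36 had a coding length of 600 bases or less (36 of the 60 tested genes of that length), and 0 of the 22 longer genes fell. The median coding length was 315 bases for the genes that fell and 564 bases for the others. Across the 82 genes the log2 change with WT IL-22 correlated with log2 coding length at Pearson r = 0.754 and Spearman rho = 0.683. These are genes measured in the same 6 libraries and not independent replicates, and no p is given.

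The same gradient ran through the rest of the table. Among other protein-coding genes with up to 600 coding bases, 319 of 1728 fell (18.5%), and their median log2 change was -0.41, against -0.76 for the 60 subunit genes of that length. Among other genes with more than 600 bases, 603 of 12559 fell (4.80%), with a median of 0.06, against -0.32 for the 22 longer subunit genes. Over bins of coding length the median of the other genes went from -0.53 (up to 300 bases) to 0.36 (over 3000 bases). Within each bin up to 1500 bases the median of the nuclear subunit genes lay below that of the other genes, for example at -0.87 up to 300 bases and at -0.70 from 300 to 450 bases. Over all 14287 other genes the correlation was 0.353. With the trend on the table's gene length removed from each library, a setting chosen after seeing the data, 13 nuclear genes fell, among them Cox7a1, Cox7a2l, Atp5e, Ndufa7, Ndufb4 and Uqcrh. The median over the 82 nuclear genes was then -0.21, and 6.48% of all genes fell. For some of the genes that still fell, the table's length is far above that of the annotated transcript, so they were treated as long genes. It is 1697 against 421 bases for Atp5e, 3038 against 503 for Cox6c and 2661 against 545 for Ndufa11. For others the lengths are close, with 971 and 971 bases for Ndufb4 and 1147 and 1129 for Cox7a2l. Under that setting the median of the mitochondrial genes was 0.22 and mt-Nd6 passed as higher (log2 0.61, edgeR adjusted p = 0.0266, with 11.3% of all genes rising), although the mitochondrial genes showed no such gradient themselves (r = -0.368 over 12 genes). The part of gene length in the lower nuclear values was not tested beyond this.

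**Figure D4:**
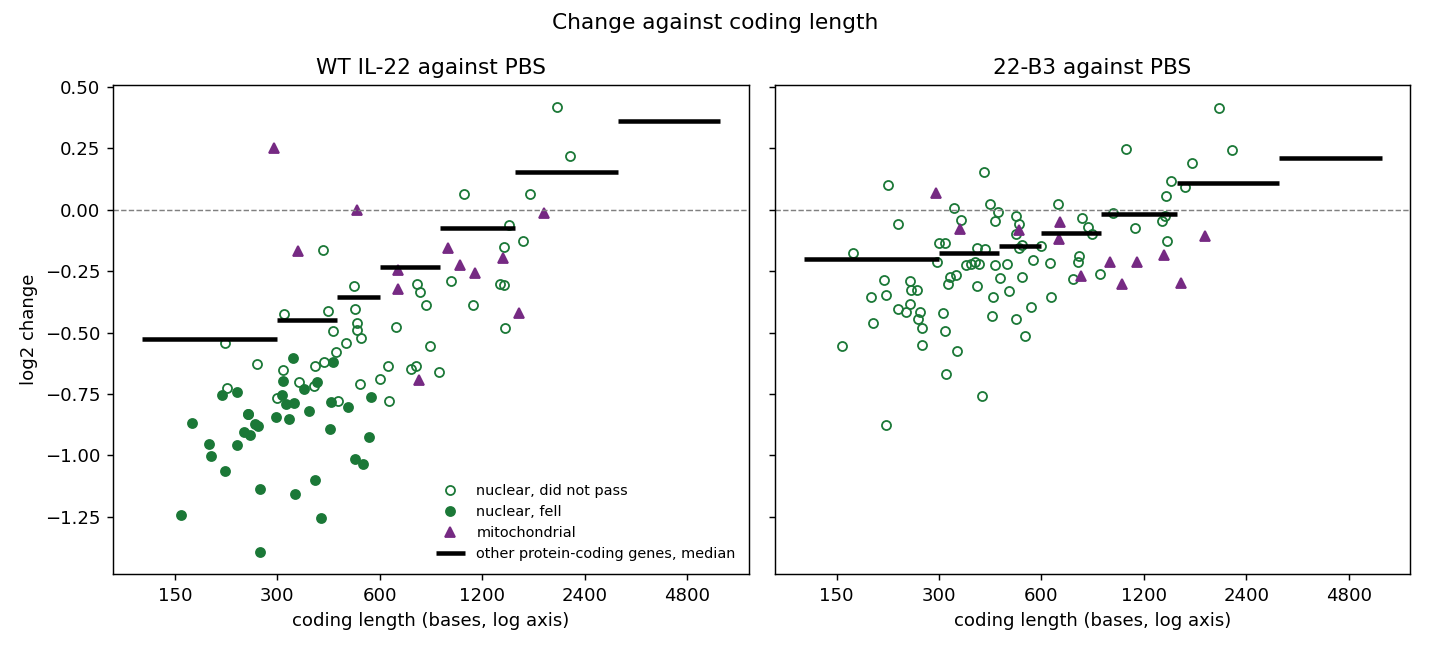
Log2 change of each subunit gene against its coding length (log axis) for WT IL-22 and for 22-B3 against PBS, with the median of other protein-coding genes in each length bin as bars. All filled points, the genes that fell, lie at 600 bases or less, and the bars climb from -0.53 to 0.36 with WT IL-22 and from -0.20 to 0.21 with 22-B3.

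With 22-B3, 0 of 82 nuclear and 0 of 12 mitochondrial genes passed the edgeR test against PBS in either direction, where 0.154% of all genes fell and 0.947% rose. Before adjustment (p under 0.05), 3 nuclear genes were lower and 1 was higher (6.74% and 11.5% of all genes), and 0 mitochondrial genes reached that level. By DESeq2, 1 nuclear gene was lower (0.896% of all genes). The median log2 change was -0.22 for the nuclear and -0.15 for the mitochondrial genes. The lowest nuclear value was that of the scarce muscle form Cox8b at -0.87, with a 95% interval that included 0, followed by Cox7a2l at -0.76 ± 0.21 (edgeR adjusted p = 0.131). Sdha had 0.42, almost the value it had with WT IL-22. The PBS libraries serve both comparisons, so values are given side by side without a measure of likeness.

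These medians cover 22-B3 libraries that did not resemble each other. Relative to the PBS mean, the nuclear genes had a median log2 difference of -0.74 and -0.63 in the WT IL-22 libraries, -0.56 in the first 22-B3 library and 0.06 in the second. In the first 22-B3 library 78 of 82 nuclear genes were below the PBS mean, and in the second 31 were. The PBS libraries themselves had 58 and 24 below it, so this count responds to small shifts. Over all genes tested the median difference was -0.004 in the first 22-B3 library and 0.016 in the second. The mitochondrial genes had -0.23 and -0.20 after WT IL-22 and -0.26 and -0.05 after 22-B3. The cytosolic ribosomal protein genes split in the same way, at -0.72 and -0.05, and the smooth muscle markers at -0.50 and -0.20. When the second 22-B3 library was left out, 47 nuclear genes fell and Sdha rose with 22-B3 against PBS, where 5.49% of all genes fell and 8.9% rose. When the first was left out, 0 fell (0.397% of all genes).

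**Figure D5:**
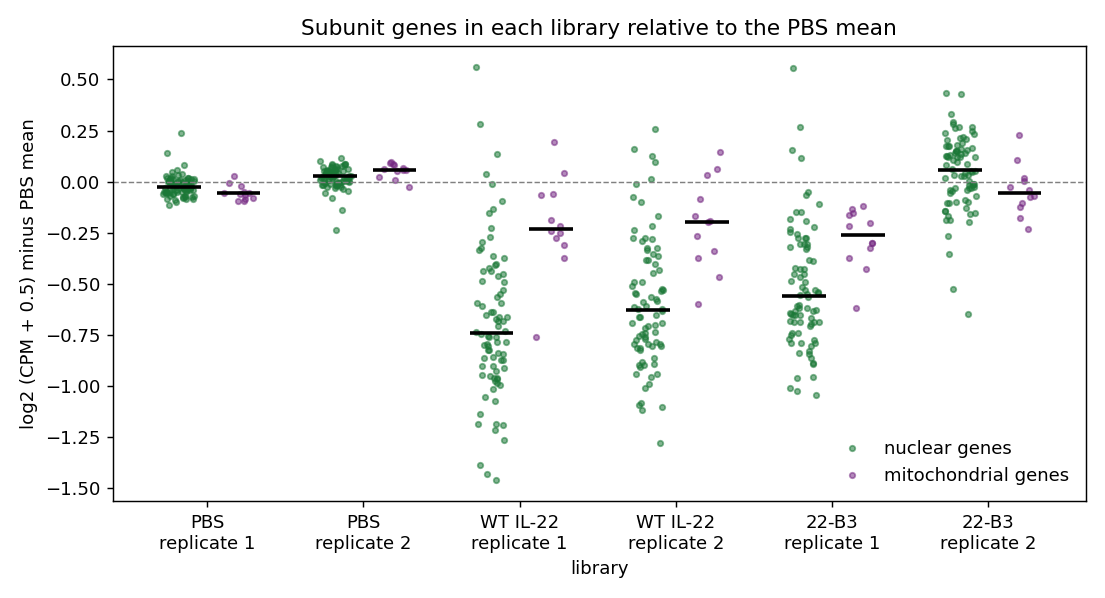
Difference of each tested subunit gene from its PBS mean, as log2 of CPM plus 0.5, in each library, with the median as a line. The nuclear genes lie at -0.74 and -0.63 with WT IL-22 and at -0.56 and 0.06 with 22-B3, while every mitochondrial median lies between -0.26 and 0.06.

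Between the cytokines, 22-B3 against WT IL-22, 0 subunit genes passed the edgeR test (0.032% of all genes rose and 0.0704% fell), 36 nuclear genes were higher before adjustment (p under 0.05, 5.09% of all genes), and 3 were higher by DESeq2 (0.493% of all genes). The 2 proteins were given at the same dose and read at the same time. The median log2 difference was 0.46 for the nuclear and 0.03 for the mitochondrial genes. Cox7a1 had 0.91 ± 0.22 (95% interval 0.42 to 1.40, edgeR adjusted p = 0.234) and Ndufb4 0.79 ± 0.21 (interval 0.32 to 1.26, edgeR adjusted p = 0.28). The intervals of both lie above 0, although neither passed after adjustment over all genes. These intervals use a spread fitted over all 6 libraries, with the close PBS libraries counted as 2. Between the 22-B3 libraries the nuclear genes differed by a median absolute log2 of 0.64, against 0.06 for PBS. The intervals may therefore be too narrow for this comparison. Sdha did not differ in its mean, with an interval of the log2 difference from -0.41 to 0.40. Without the first 22-B3 library, 57 nuclear genes and mt-Co3 rose in this comparison (2.78% of all genes), and without the second, 0 did (0.294%).

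Other genes of mitochondria were read from lists chosen on function, with WT IL-22 against PBS. Import and folding genes held calls in both directions. Hspd1 (the mitochondrial chaperonin) had 186 and 179.8 CPM with PBS, 564 and 434 after WT IL-22 and 429.7 and 394 after 22-B3. All 4 cytokine libraries were well above PBS. It rose with WT IL-22 (log2 1.45 ± 0.18, edgeR adjusted p = 0.00233) and with 22-B3 (log2 1.17, edgeR adjusted p = 0.0193). Hspa9, the chaperone of the import motor, rose with WT IL-22 (0.98) and with 22-B3 (0.84), and Tomm40, the outer membrane pore, rose with WT IL-22 (0.80). Of 21 import genes tested, 3 rose and 1 fell with WT IL-22, with Timm17b falling by 0.79 (9.9% of all genes rose and 6.74% fell). Their median was -0.26, and 14 of the 21 had a negative log2 change, against 7973 of the 15628 genes tested. With the PBS libraries summed, Hspd1 had an edgeR adjusted p of 0.0644 with WT IL-22 and 0.366 with 22-B3.

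In the lists of mitochondrial RNA, translation and assembly, few genes passed, read against 9.9% of all genes that rose and 6.74% that fell. Of 25 genes of mitochondrial DNA maintenance and transcription, 3 rose and 1 fell. Lrpprc, which stabilises mitochondrial mRNAs, rose by a log2 change of 1.05, the tRNA-processing enzyme Elac2 by 0.99 and the RNA-binding Tbrg4 by 0.68, while Tfb1m, an rRNA methyltransferase, fell by 0.72. Tfam, Polrmt and Tfb2m, the factors that transcribe mitochondrial DNA, had 0.14, 0.53 and -0.02 and did not pass. Of 11 translation factors, Gfm1 (0.74) and Tufm (0.64), both elongation factors, rose and 0 fell. Of 76 mitochondrial ribosome genes, 0 rose and 5 fell, with a median of -0.26. None of 13 genes of the TCA cycle passed in edgeR, and the median there was -0.01. At an unadjusted p under 0.05, 2 of them were higher, against 18.7% of all genes. Of 38 assembly factors, 2 rose and 3 fell. Cox18 (0.95) and Cox10 (0.55), both assembly factors of complex IV, rose, and Cox14, a small complex IV assembly protein, fell by 0.85.

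Of 11 genes listed as regulators of nuclear subunit genes or as electron carriers, 2 rose and 0 fell, beside 9.9% and 6.74% of all genes. Pprc1, a coactivator related to PGC-1 and known for induction by growth signals, had 18.7 and 17.3 CPM with PBS, 70.4 and 39.5 after WT IL-22 and 37.4 and 27.1 after 22-B3, a log2 change of 1.61 ± 0.27 with WT IL-22 (edgeR adjusted p = 0.00875). Myc had 16.4 and 18.5 CPM with PBS, 54.0 and 35.6 after WT IL-22 and 22.8 and 17.0 after 22-B3, a log2 change of 1.36 with WT IL-22 (edgeR adjusted p = 0.00876). For both genes the first WT IL-22 library was the highest, and with the PBS libraries summed the edgeR adjusted p was 0.0914 for Pprc1 and 0.0968 for Myc. Ppargc1a (PGC-1 alpha) had a log2 change of -0.08, Ppargc1b 0.54, Nrf1 0.40, Gabpa 0.30 and Esrra -0.20, and none of these passed. Cycs, the electron carrier cytochrome c, had 0.13 and did not pass.

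With WT IL-22, most lists of other cell types and of short abundant transcripts had lower medians, as the nuclear subunit genes did. Of 80 cytosolic ribosomal protein genes, 30 fell and 0 rose with WT IL-22, with a median log2 change of -0.76, against 6.74% of all genes that fell. With the PBS libraries summed, 0 of them fell at a median of -0.76, and 0 genes of the marker lists passed. The ribosomal list was added after the data had been seen. Of 9 smooth muscle markers 5 fell (median -0.72), their summed CPM being 13863 and 13937 with PBS, 6824 and 9656 after WT IL-22 and 9568 and 11988 after 22-B3. Of 5 macrophage markers 4 fell (median -0.77), with a summed CPM of 533 and 550.0 for PBS, 229.9 and 326 for WT IL-22, and 338 and 339.6 for 22-B3. Of 3 skeletal muscle markers 1 fell, at a summed CPM of 25.5 to 27.1 for PBS and 14.4 to 17.8 for WT IL-22, and of 5 fat markers 1 fell, at 93.9 to 104 and 46.2 to 61.5. Myh4, a skeletal muscle myosin, and Ucp1, which marks brown fat, had 0 counts in all 6 libraries. Of 5 B and plasma cell markers and 4 T cell markers 0 passed in edgeR. At an unadjusted p under 0.05, 3 and 1 were lower, against 16.2% of all genes. The summed CPM of the B and plasma cell markers was 53.1 to 55.3 for PBS and 26.3 to 36.5 for WT IL-22, and that of the T cell markers 5.55 to 6.30 and 2.85 to 5.02. Of 12 epithelium markers 2 rose and 1 fell (median 0.17), with a summed CPM of 15746 and 15712 for PBS and 16965 and 15676 for WT IL-22. In the second 22-B3 library the lists parted. Relative to the PBS mean, the median log2 difference there was 0.06 for nuclear subunit and -0.05 for ribosomal protein genes. It was 0.28 for epithelium, -0.20 for smooth muscle, -0.36 for skeletal muscle and -0.48 for macrophage markers. T cell markers had -0.72, fat markers -1.43, and B and plasma cell markers -2.12. The part of these lists in the lower subunit values was not tested.

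Promoters of the nuclear genes were read from RefSeq (GRCm38.p6, the same build as mm10), 250 bases before to 50 after the start, and 66 of the 85 nuclear genes had an entry. NRF1 and ETS-family factors such as GABP are the textbook regulators of these genes, and YY1 is a further one. The NRF1 motif and the letters CCGGAAG (ETS) and AAGATGGC (YY1) were searched on both strands, and the ETS letters may overlap other sites. NRF1 letters were found in 17 of 66 subunit promoters (25.8%) and in 5.19% of 27025 gene promoters, ETS letters in 24.2% against 9.93%, and YY1 letters in 13.6% against 3.19%. Whether the genes that fell and those that did not differ in these letters was not tested. NRF1 letters occurred in 8 of 30 that fell and 9 of 35 that did not, ETS letters in 9 and 7, and YY1 letters in 5 and 4. A match of letters is a description and not a bound site. The promoters below show a gene that fell (Ndufb4) and a gene that did not (Sdha), both with 3 NRF1 matches, and the gene with the lowest log2 change (Cox7a1), with 0 matches to any of the motifs. Capitals mark the NRF1 letters, and each runs 5′ to 3′ on the strand of the gene, Ndufb4 at chr16:37654319-37654618 (minus), Sdha at chr13:74350191-74350490 (minus) and Cox7a1 at chr7:30183921-30184220 (plus).
Ndufb4: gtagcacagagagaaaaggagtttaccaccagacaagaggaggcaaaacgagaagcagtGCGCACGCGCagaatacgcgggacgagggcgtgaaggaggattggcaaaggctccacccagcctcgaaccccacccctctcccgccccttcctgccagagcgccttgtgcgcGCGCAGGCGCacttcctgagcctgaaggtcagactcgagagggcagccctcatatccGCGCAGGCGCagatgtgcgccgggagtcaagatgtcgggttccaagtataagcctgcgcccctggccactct
Sdha: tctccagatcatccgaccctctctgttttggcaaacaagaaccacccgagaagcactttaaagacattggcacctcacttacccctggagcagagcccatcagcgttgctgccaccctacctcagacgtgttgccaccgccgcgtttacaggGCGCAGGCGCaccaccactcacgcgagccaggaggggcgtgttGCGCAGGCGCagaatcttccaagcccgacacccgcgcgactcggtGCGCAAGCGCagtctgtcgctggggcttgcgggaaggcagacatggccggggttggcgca
Cox7a1: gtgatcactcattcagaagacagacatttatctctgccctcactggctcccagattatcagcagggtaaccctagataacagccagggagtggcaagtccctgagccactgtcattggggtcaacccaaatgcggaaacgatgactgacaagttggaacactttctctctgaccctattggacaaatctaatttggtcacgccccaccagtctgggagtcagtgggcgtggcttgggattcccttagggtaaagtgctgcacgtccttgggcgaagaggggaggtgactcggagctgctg
Ndufb4 and Sdha, picked with their changes known, share these letters. They differ in coding length, 387 against 1992 bases, and in log2 change with WT IL-22, -1.10 against 0.42. Whether letters or length bear on the change was not tested with them.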

How the data were processed

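RNA of mouse colon tissue was sequenced in 6 libraries, 2 for each of 3 groups taken from the treatment label. The submitters' processing notes name STAR 2.5 and mm10; the counter, annotation and strand setting are not given in the sources used here. Overlapping and antisense genes may therefore share reads. Read counts per gene, whole numbers, were deposited by the authors in 1 table. The deposited FPKM values were computed by the authors from those counts, the table's gene length and the column total (largest relative deviation 5e-12). That gene length is often a long transcript, which lowers the FPKM of short genes.

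Genes were kept by filterByExpr (15628 genes), scaled by TMM and fitted with edgeR 4.0.16 in R 4.3.3, with 1 mean per group over all 6 libraries. Groups were compared by its quasi-likelihood test with Benjamini-Hochberg adjustment over all genes tested in a comparison, with 0.05 as the limit for a pass. CPM values are TMM-scaled. SEs come from the fitted change divided by the root of F, with 95% intervals. The fit was tested on simulated data. Alternatives were DESeq2 1.42.0, limma 3.58.1 on log2 of FPKM plus 0.1 or 1, other scalings and filters, a replicate block, the PBS libraries summed, each library left out, and a gene length trend removed.

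Coding lengths, exon overlaps and near-identical copies came from the GENCODE M21 annotation and transcripts, matched by gene ID, with a value for all 98 members. The members and lists were chosen with earlier results of these data known. Genes named were all mitochondrial ones, the highest and lowest in FPKM per complex, up to 8 that passed with the smallest p per complex, paired isoforms, a panel of regulators and up to 3 per other list. Core subunits outside that rule were picked after their values had been seen.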

Additional observations from a re-analysis of the deposited data

How the results depend on the processing

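Nuclear genes that fell with WT IL-22 numbered 36 and moved to 59 with the replicate block, 10 with limma on log2 of FPKM plus 0.1 without a filter, 13 with the length trend removed and 0 with the PBS libraries summed. Leaving out 1 library gave 0 to 67, and 0 to 1 that rose. Fits that leave a group with 1 library assume that it varies like the others. Over all genes with WT IL-22, 1054 of 15628 fell in the main fit, 2008 with the block and 1012 with the length trend removed. DESeq2 gave 1345, upper-quartile scaling 1566 and limma on log2 of FPKM plus 0.1 gave 968. Of 22340 genes, 1247 fell with no low-count filter and 418 with limma without a filter. All 36 kept a negative sign in every setting except Uqcrb, at 0.0015 with the length trend removed. The nuclear median of -0.70 became -0.21 with that trend removed. For mitochondrial genes with WT IL-22, 1 fell with DESeq2, upper-quartile scaling, no low-count filter, limma on log2 of FPKM plus 0.1 and the replicate block, 0 to 2 on leaving out 1 library, and 1 rose with the length trend removed, where their median turned from -0.21 to 0.22. With upper-quartile scaling it was -0.33, as the median of all genes moved to -0.13 (-0.10 for 22-B3 against PBS). For 22-B3 against PBS, nuclear genes that fell numbered 1 with DESeq2, 3 with the block, 1 with the length trend removed and 0 to 47 on leaving out 1 library (0 to 1 rose, and 0 to 1 mitochondrial gene fell). Its nuclear median ranged from -0.59 to 0.028 on leaving out 1 library, and its mitochondrial median from -0.29 to -0.086, with -0.26 under upper-quartile scaling and -0.018 with the length trend removed. For 22-B3 against WT IL-22, 3 nuclear genes rose with DESeq2, 2 with the block and 0 to 57 on leaving out 1 library (mitochondrial 0 to 1). The nuclear median was 0.16 with the length trend removed and 0.11 to 0.74 on leaving out 1 library, and the mitochondrial median -0.19 and -0.090 to 0.14. Over all 15628 genes, 140 fell for 22-B3 against PBS with DESeq2, 276 with the block and 68 with the length trend removed. For 22-B3 against WT IL-22, 77 of all genes rose with DESeq2 and 71 with the block. Where no cause is named it was not tested. Same-numbered libraries did not deviate together throughout (r = 0.034, 0.039 and 0.200), so the numbers are not read as pairs. The limit given for genes with 0 counts covers counting error only, while the intervals of log2 changes come from the edgeR fit and include variation between libraries. In that fit the PBS libraries count as 2.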
